A study of Mus musculus with 6 samples.

Results

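The genes described here encode the subunits of the interleukin-12 and interleukin-27 cytokine family, with Il6 and Il10, in single macrophages before and after exposure to LPS, the bacterial outer membrane component that activates these cells. The set is a list of 7 gene symbols, Il12b, Il12a, Il23a, Il27, Ebi3, Il6 and Il10, chosen by name and not by their values. Earlier results of these data were known when the set and the gene lists below were chosen. A row was found for 6 of the 7 among the 18429 genes of the count matrix, and Il12a was not analysed here. The measurement was MARS-seq, in which single cells are sorted into plate wells and each transcript molecule is tagged and counted once by its unique molecular identifier (UMI). There were 6 samples, 1 for each genotype and time point, so no difference below has a replicate check, no test was run, and each interval is a 95% interval for counting error only.

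All cells were bone marrow-derived macrophages grown in L929-conditioned medium from mice of a mixed genetic background that includes C57BL/6, aged between 6 weeks and 6 months. Cells of both genotypes carried creERT2 on both copies of the rosa26 locus, and all received 200 nM 4-hydroxy-tamoxifen on day 4 of culture, the wild-type cells included. Wild-type samples carried the unmodified Rad21 gene, and Rad21-/- samples carried Rad21 lox/lox alleles that the tamoxifen-activated Cre deletes in the culture dish. Rad21 encodes a core subunit of cohesin, the ring complex that forms chromatin loops. On day 7 the cells were left untreated or were exposed for 2 or 8 h to LPS of Salmonella typhosa, at 10 ng/ml. The wild-type samples held 239 untreated cells and 257 at 8 h, the Rad21-/- samples held 270 and 224, and both genotypes had the same number of cells at 2 h. The number of separate cultures or mice behind each sample was not given, and because deletion takes place in a mixed dish, single cells may keep an allele.

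Interleukin-12 and its relatives are built from 2 chains that are encoded by separate genes and must be made by the same cell to be secreted as a pair. Il12b encodes p40, the chain shared by interleukin-12 (with p35 from Il12a) and interleukin-23 (with p19 from Il23a). Interleukin-27 pairs p28, from Il27, with the p40-like chain encoded by Ebi3. These cytokines steer T cell responses, interleukin-6 drives the acute-phase and inflammatory response, and interleukin-10 restrains macrophage activation. In macrophages, LPS acts through Toll-like receptor 4, NF-kappaB, C/EBP and interferon regulatory factors to switch such genes on.

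The 250 bases before the annotated start site were taken from RefSeq on GRCm38.p6, in which 4 of the 7 genes had an entry (Il12b, Il12a, Ebi3 and Il6). The 3 shown are those with a row in the matrix, and they lie before genes that differed in how many resting cells held their transcripts. All 3 are on the plus strand. Capitals mark matches to motifs searched on both strands: NF-kappaB by its usual 10-base consensus, C/EBP as TTNNGNAA, AP-1 as TGANTCA, the interferon response element by its usual consensus and the TATA box as TATAA. No 2 marked matches overlap.
Il12b, chr11:44399813-44400062: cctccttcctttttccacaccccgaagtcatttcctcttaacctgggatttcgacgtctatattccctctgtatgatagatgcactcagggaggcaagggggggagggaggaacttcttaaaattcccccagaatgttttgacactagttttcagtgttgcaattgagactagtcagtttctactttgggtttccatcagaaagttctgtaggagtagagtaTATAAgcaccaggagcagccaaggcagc
Il6, chr5:30012864-30013113: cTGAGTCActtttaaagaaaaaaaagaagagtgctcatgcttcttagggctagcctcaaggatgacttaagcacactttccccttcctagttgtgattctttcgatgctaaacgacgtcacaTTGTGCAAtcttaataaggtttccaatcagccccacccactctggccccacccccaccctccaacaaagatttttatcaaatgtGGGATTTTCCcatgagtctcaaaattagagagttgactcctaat
Ebi3, chr17:55952373-55952622: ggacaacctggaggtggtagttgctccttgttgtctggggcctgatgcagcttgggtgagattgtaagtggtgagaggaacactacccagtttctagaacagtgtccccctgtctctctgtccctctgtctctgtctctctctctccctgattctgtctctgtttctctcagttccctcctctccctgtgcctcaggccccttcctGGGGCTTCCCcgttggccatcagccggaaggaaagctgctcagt
The Il6 window held an NF-kappaB match 44 bases before the start site, with a C/EBP match and then an AP-1 match farther upstream, the latter 249 bases before it. The Ebi3 window held an NF-kappaB match, also 44 bases before the start site. The only match in the Il12b window was a TATA box, 28 bases before the start site. A site that departs from the consensus letters is not marked by this search. Of all 32851 RefSeq promoter windows of this length, 7.25% held an NF-kappaB match, 36.8% a C/EBP match, 6.75% an AP-1 match, 2.98% the interferon response element and 22.8% a TATA box. A match describes letters in the window and not a bound site.

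Depth was close in the 6 samples, with medians between 5577 and 7055.5 UMIs per cell, the highest in Rad21-/- cells at 8 h. Of the 1362 cells, 17 wells held more than 25000 UMIs, and at 2 h they carried 45.5% of all wild-type UMIs, so levels were compared after each cell had been thinned at random to 3800 UMIs, which left at most 228 cells per sample. Each of the 8 macrophage markers looked for was found in every sample, and each cell held at least 1 UMI of the summed list. Summed markers of dendritic cells (3 of 8 with a row), neutrophils (2 of 6), B cells (2 of 5), T and NK cells (2 of 6) and mast cells (1 of 5) lay between 0 and 13.5 thinned UMIs per 100 cells, against 2358 to 3994 for the macrophage list. Rad21 itself had a UMI in 18.7% to 26.9% of wild-type cells and in 2.96% to 6.45% of Rad21-/- cells. The libraries were made in 24 pools, none with cells of more than 1 time point, and both genotypes had at least 10 cells in 18 of them. Pools are technical batches and not replicates of the condition.

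Il12b transcripts were nearly absent from resting cells, appeared in a minority of cells by 2 h, and had a lower share of positive cells in Rad21-/- than in wild-type samples at both LPS time points. In wild-type cells, the share with at least 1 Il12b UMI was 2.09% untreated (0.683 to 4.81), and after 8 h it was 37.4% (31.4 to 43.6). The Rad21-/- shares were 1.48% untreated (0.405 to 3.75) and 26.3% at 8 h (20.7 to 32.6), and those at 2 h were 30.1% in wild-type and 17.2% in Rad21-/- samples. The untreated shares give the background against which the LPS samples are read, and both are far below them. At 2 h the wild-type share exceeded the Rad21-/- share by 12.9 percentage points, and the difference had that direction in 4 of 4 pools (8.70 to 17.7 points). At 8 h the share was lower in Rad21-/- cells by 11 points, in 4 of 6 pools, and it was higher in the other 2, by at most 4.10 points. One of these 2 held 20 positive Rad21-/- cells of 44 against 18 wild-type cells of 43. Of the 10580 genes with at least 50 thinned UMIs, 13.4% were found in a lower share of Rad21-/- cells in every pool at 2 h and 3.57% at 8 h.

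The number of Il12b transcripts did not follow the number of positive cells at 8 h. Wild-type cells held 2.60 thinned Il12b UMIs per 100 cells untreated (0.846 to 6.08), 31.5 after 2 h (23.5 to 41.3) and 53.1 after 8 h (44.0 to 63.4). Rad21-/- cells held 1.35 (0.277 to 3.93), 9.74 (5.45 to 16.1) and 49.3 (40.1 to 59.9). The Rad21-/- level was therefore 0.309 times the wild-type level at 2 h (0.162 to 0.557), against 0.928 times at 8 h (0.705 to 1.22), and these 2 intervals do not overlap. At 8 h, 40 thinned Rad21-/- cells carried 100 Il12b UMIs, or 2.50 per positive cell, while 69 wild-type cells carried 121, or 1.75 per positive cell. The median went the other way, since before thinning a positive cell held a median of 1 UMI in Rad21-/- and 2 in wild-type samples. Of the positive cells, 52.5% and 40.6% held 1 UMI only. Cells with at least 5 thinned UMIs numbered 6 in Rad21-/- and 3 in wild-type, and the 5 highest cells held 35% and 19.0% of the UMIs. Transcripts clustered in few cells in this way make the true error of a ratio wider than its counting interval. Without the pool that held 20 positive Rad21-/- cells of 44, the 8 h ratio was 0.74.

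**Figure D1:**
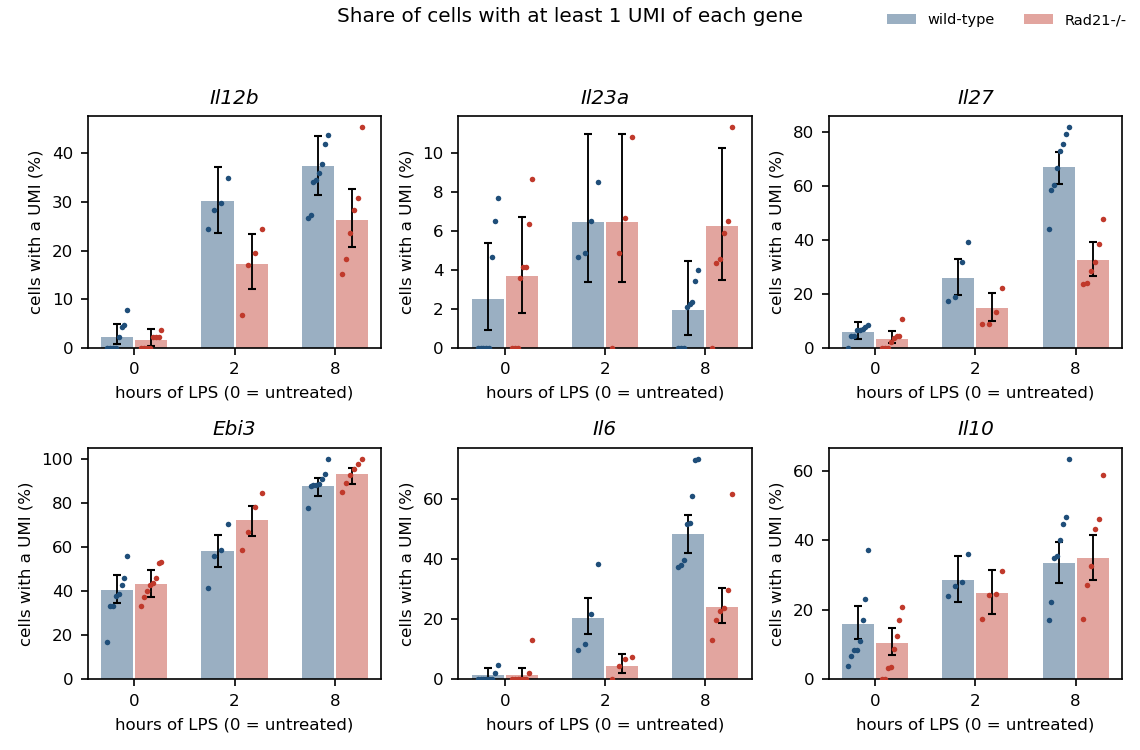
Bars give the share of cells (y axis, %) in which each gene had 1 or more UMIs against hours of LPS (x axis) in wild-type (blue) and Rad21-/- (red) samples, error bars are Clopper-Pearson 95% intervals, and points are library pools with at least 10 cells of that genotype. Il27 at 8 h stands at 66.9% in wild-type and 32.6% in Rad21-/- cells, while Ebi3 stands at 87.5% and 92.9%.

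Il23a, the partner of Il12b in interleukin-23, was too rare for a level to be read. It had a UMI in 6 wild-type cells untreated, 12 at 2 h and 5 at 8 h, and in 10, 12 and 14 Rad21-/- cells. The share was thus 6.45% in both genotypes at 2 h (3.38 to 11), and at 8 h it was 1.95% in wild-type (0.635 to 4.48) and 6.25% in Rad21-/- cells (3.46 to 10.3). Il23a had a total of 1 to 8 thinned UMIs in each sample, the only one of the 6 genes under the limit of 50, and the Rad21-/- to wild-type ratios of 2.86 at 2 h (0.686 to 16.7) and 5.62 at 8 h (0.628 to 266) rest on 8 against 3 and 5 against 1 thinned UMIs. Both intervals span 1. Thinned to 5500 UMIs instead, the 2 h ratio was 0.5, in the other direction.

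Il27 and Ebi3, the chains of interleukin-27, went apart between the genotypes. Il27 had a UMI in 5.86% of wild-type cells untreated (3.24 to 9.63), in 25.8% after 2 h of LPS (19.7 to 32.7) and in 66.9% after 8 h (60.8 to 72.6), and no neighbouring intervals overlapped. The Rad21-/- shares in the same order were 3.33% (1.54 to 6.23), 14.5% (9.79 to 20.4) and 32.6% (26.5 to 39.2), again without overlap. At 8 h the Rad21-/- share lay 34.3 points below the wild-type share and was lower in 6 of 6 pools, by 25.2 to 58.3 points. The Il27 level at 8 h was 97.4 thinned UMIs per 100 wild-type cells (85.0 to 111) and 23.2 per 100 Rad21-/- cells (17 to 30.8), a ratio of 0.238 (0.170 to 0.327). Both the number of positive cells and the UMIs in each of them were lower, since a positive cell held 1.82 thinned UMIs in wild-type and 1.15 in Rad21-/-. At 2 h the levels were 20.6 (14.3 to 28.8) and 9.74 (5.45 to 16.1), a ratio of 0.473 (0.239 to 0.891), but this ratio was 0.662 with another random draw of the thinning and 0.786 at 5500 UMIs, and without 1 of the library pools it was 0.826, so its place below 1/2 depended on the draw and on 1 pool.

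Ebi3 was already present in resting cells and did not share this difference. The share with Ebi3 was 40.6% in untreated wild-type cells (34.3 to 47.1), 58.1% after 2 h (50.6 to 65.2) and 87.5% after 8 h (82.9 to 91.3). Among Rad21-/- cells these were 43.3% (37.3 to 49.5), 72.0% (65 to 78.4) and 92.9% (88.7 to 95.9). The level was 37.5, 59.4 and 200.0 thinned UMIs per 100 wild-type cells and 36.3, 64.9 and 274.9 per 100 Rad21-/- cells. The Rad21-/- to wild-type ratio was 0.969 untreated (0.696 to 1.35), 1.09 after 2 h (0.819 to 1.46) and 1.37 after 8 h (1.21 to 1.56), where the median ratio of all genes was 1.15. Ebi3 therefore had the higher level in Rad21-/- cells at 8 h, and 44 thinned Rad21-/- cells held at least 5 Ebi3 UMIs against 20 wild-type cells. The 8 h intervals of the ratio of Il27 and of Ebi3 are far apart.

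**Figure D2:**
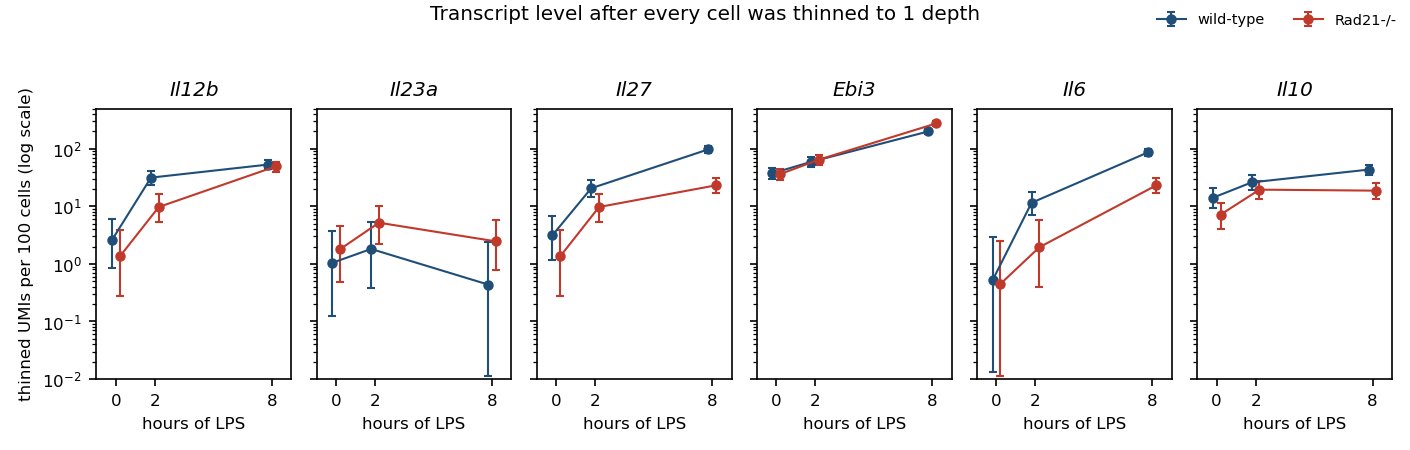
Points give thinned UMIs per 100 cells (y axis, log scale) against hours of LPS (x axis, 0, 2 and 8 h) in wild-type (blue) and Rad21-/- (red) samples, with exact Poisson 95% intervals. The lines of Il12b come close at 8 h (53.1 and 49.3), those of Il27 (97.4 and 23.2) and Il6 (87.3 and 23.2) stay apart, and those of Ebi3 lie close untreated and at 2 h and apart at 8 h (200.0 and 274.9).

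Il6, which encodes a pyrogenic cytokine that signals through gp130, was close to absent before LPS and had the lowest Rad21-/- to wild-type ratio of the 6 genes at 2 h. Its wild-type shares were 1.26% untreated (0.260 to 3.62), 20.4% after 2 h (14.9 to 26.9) and 48.2% after 8 h (42 to 54.5). Its Rad21-/- shares were 1.48% (0.405 to 3.75), 4.30% (1.87 to 8.30) and 24.1% (18.7 to 30.3) in that order. The 2 h Rad21-/- interval overlaps the untreated one, so a difference of Il6 between untreated and 2 h was not detectable in those cells at this depth. The Rad21-/- share was lower in 4 of 4 pools at 2 h (3.09 to 31.0 points) and in 6 of 6 pools at 8 h (7.66 to 49.2 points). At 8 h the levels were 87.3 thinned UMIs per 100 wild-type cells (75.6 to 100.3) and 23.2 per 100 Rad21-/- cells (17 to 30.8), a ratio of 0.265 (0.189 to 0.366). At 2 h they were 11.5 (6.93 to 18) and 1.95 (0.402 to 5.69), which rest on 19 and 3 UMIs and give a ratio of 0.169 (0.0321 to 0.575). Leaving out single library pools took it to between 0.0801 and 0.345, and another random draw gave 0.268.

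The Il6 transcripts of a positive cell were also fewer without Rad21. At 8 h a wild-type cell with Il6 held 2.21 thinned UMIs and 11 cells held at least 5, whereas a Rad21-/- cell with Il6 held 1.38 and 2 cells held at least 5. On the scale of the mean natural logarithm of CPM + 1 over positive cells, with CPM the UMIs scaled to a common total per cell, the Rad21-/- level of Il6 lay 0.79 below the wild-type level at 8 h, against 0.68 for Il27, 0.39 for Il10 and 0.25 for Il12b, and 0.26 above it for Ebi3. At 2 h these differences were -0.34 for Il12b, -0.26 for Il27, -0.18 for Il6, 0.02 for Il10 and 0.04 for Ebi3. The SD between positive cells was larger than the difference in both samples for each of these values except Il27 at 8 h (SD 0.66 in wild-type and 0.58 in Rad21-/- cells) and Il6 at 8 h (0.89 and 0.65).

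Il10, the anti-inflammatory cytokine of the set, was detected in resting cells, and its wild-type level at 8 h was a smaller multiple of the untreated level than that of Il12b, Il27, Ebi3 and Il6. In wild-type samples 15.9% of untreated cells held it (11.5 to 21.2), 28.5% of those at 2 h (22.1 to 35.6) and 33.5% of those at 8 h (27.7 to 39.6), so that the 2 LPS samples did not differ beyond their intervals. The corresponding Rad21-/- percentages were 10.4% (7.00 to 14.6), 24.7% (18.7 to 31.6) and 34.8% (28.6 to 41.5). At 8 h the shares from all UMIs were alike, yet after thinning they were 25.4% in wild-type (19.9 to 31.6) and 15.8% in Rad21-/- cells (11 to 21.5), in which the median depth was higher. The level was 14.1 thinned UMIs per 100 wild-type cells untreated (9.27 to 20.5), 26.1 after 2 h (18.9 to 35.1) and 43.4 after 8 h (35.3 to 52.9), and 7.17 (4.10 to 11.7), 19.5 (13.1 to 27.8) and 18.7 (13.2 to 25.7) per 100 Rad21-/- cells. The Rad21-/- to wild-type ratio was 0.510 untreated (0.257 to 0.982), 0.748 after 2 h (0.453 to 1.22) and 0.431 after 8 h (0.288 to 0.633). By mean CPM without thinning the 8 h ratio was 0.603, above 1/2. In shares from all UMIs, which depth affects, pools gave no single direction. The Rad21-/- share was lower in 3 of 6 pools at 8 h and in 3 of 4 at 2 h. The thinned 8 h ratio lay between 0.381 and 0.483 when pools were left out in turn.

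Set against the untreated sample of the same genotype, which both LPS samples share, 3 of the 6 genes were at least 2-fold higher in wild-type cells at 2 h, namely Il12b (12.1-fold, 4.87 to 38.8), Il27 (6.59-fold, 2.74 to 19.2) and Il6 (22.1-fold, 3.51 to 919). Among all 10580 genes 5.68% were called at least 2-fold higher and 7.36% at least 2-fold lower, and the median ratio was 0.934. Ebi3 lay at 1.58 (1.16 to 2.18) and Il10 at 1.85 (1.12 to 3.12). At 8 h 5 genes were past 2-fold, Il12b at 20.4 (8.50 to 63.9), Il27 at 31.2 (14.1 to 85.8), Ebi3 at 5.33 (4.15 to 6.94), Il6 at 168 (29.7 to 6652) and Il10 at 3.09 (2.00 to 4.92), against 7.75% of all genes called higher and 19% called lower. The Il6 ratios are against 1 untreated UMI and carry little more than their lower bounds. With another random draw no Il6 UMI was left in the untreated sample. It then stood at the floor of 3 UMIs, which gave 6.21 and 57.8. The Il12b ratio lay between 9.45 and 35.4 at 2 h over the alternative settings and between 15.9 and 50 at 8 h, and the Il27 ratio between 3.15 and 8.65 and between 17.4 and 36.5. Each of these stayed above 2, while Il10 at 2 h lay between 1.61 and 2.44.

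Against untreated Rad21-/- cells, 3 of the 5 genes over the limit of 50 UMIs were at least 2-fold higher at 2 h, Il12b and Il27 each at 7.24 (2.05 to 39.0) and Il10 at 2.72 (1.43 to 5.33), against 5.55% of all genes called higher and 5.74% called lower. Over the alternative settings the ratio of Il10 lay between 1.75 and 3.80 and that of Ebi3, 1.79 here, between 1.68 and 2.20, so whether either was past 2-fold depended on the setting. Il23a stood at 2.90 (0.776 to 13.1) from 8 and 4 UMIs, its interval spans 1, and leaving out 1 library pool took its ratio to 0.921. No ratio was formed for Il6, whose thinned UMIs were at or under the limit of 3 in both samples. At 8 h, 5 genes were past 2-fold, each higher, against 8.89% of all genes called higher and 8.45% called lower, with Il12b at 36.6 (12.2 to 181), Il27 at 17.2 (5.54 to 86.4), Ebi3 at 7.57 (5.99 to 9.68), Il6 at 51.6 (8.83 to 2082) and Il10 at 2.61 (1.42 to 5.01). The Il6 ratio, against 1 untreated UMI, lay between 11.6 and 72.4 over the alternative settings, that of Il12b between 27.9 and 54.9 and that of Il27 between 7.38 and 22.7. The genes past 2-fold at 8 h were thus Il12b, Il27, Ebi3, Il6 and Il10 in both genotypes.

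Between the genotypes, only Il27 was past 2-fold in untreated cells (0.430, 0.0697 to 2.02, from 3 and 6 UMIs), against 6.79% of all genes called lower and 3.52% called higher, and its interval spans 1. Leaving out 1 library pool took this ratio to 0.636. At 2 h, of the 5 genes over the limit of 50 UMIs, Il12b, Il27 and Il6 were at least 2-fold lower and none was at least 2-fold higher, against 8.3% and 6.01% of all genes. At 8 h Il27, Il6 and Il10 were at least 2-fold lower and none higher, against 5.97% and 12.1%, and at that time the median ratio of all genes was 1.15. The ratio of Il23a, which was under the limit, is not counted here. With Il23a included, the median over the genes with a ratio was 0.517 untreated, 0.610 at 2 h and 0.680 at 8 h, against 0.967, 1.02 and 1.15 over all genes. The genotype comparisons use the same samples as the LPS comparisons and are not independent of them.

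**Figure D3:**
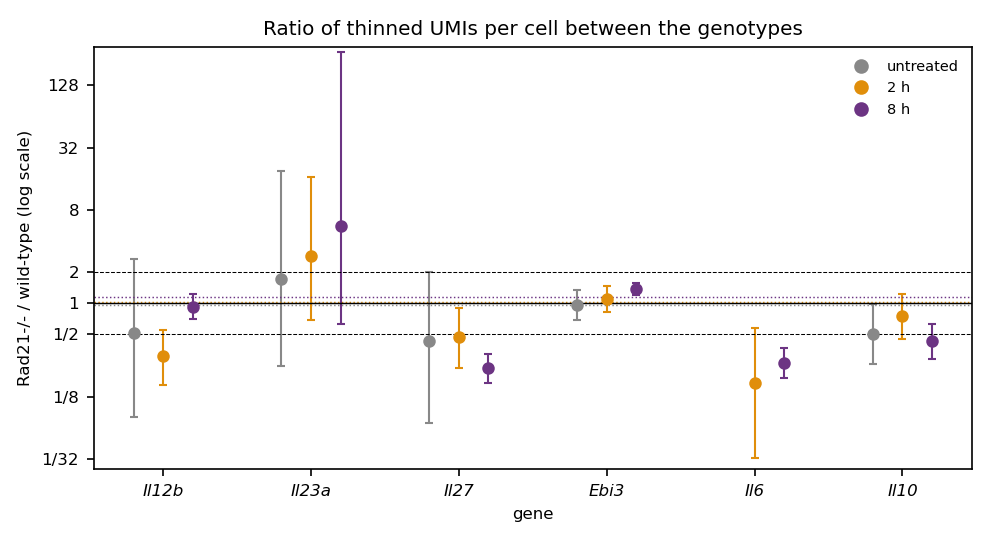
Points give the ratio of thinned UMIs per cell, Rad21-/- over wild-type (y axis, log scale), for each gene (x axis) in untreated (grey), 2 h (orange) and 8 h (purple) samples, with exact 95% counting intervals. Dashed lines mark 2-fold, dotted lines mark the median of all genes, and no point is drawn for untreated Il6. Il12b stands at 0.309 at 2 h and at 0.928 at 8 h, while Il27 (0.238) and Il6 (0.265) lie far below 1 at 8 h.

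Because the chains of these cytokines are made by the same cell, their co-detection was counted in each sample and set against the number expected if each gene fell into cells at random, which is the product of the 2 shares. For Il27 and Ebi3, 152 of 257 wild-type cells at 8 h held both (59.1%, 52.9 to 65.2) against 150.6 expected, and after thinning 97 cells held both against 96.9. In Rad21-/- cells at 8 h, 69 of 224 cells held both (30.8%, 24.8 to 37.3) against 67.8, and after thinning 35 against 35.3. Fewer Rad21-/- cells held both genes, as fewer held Il27, and the number of cells with both at 8 h was 1.01 times the expected one in wild-type and 1.02 times in Rad21-/- samples. At 2 h the pair was found in 29 wild-type cells (27.9 expected) and 22 Rad21-/- cells (19.5 expected).

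Il12b and Il23a together, the genes of interleukin-23, were found in 6 wild-type cells at 2 h (3.23%, 1.19 to 6.89) against 3.61 expected, and in 6 of 224 Rad21-/- cells at 8 h (2.68%, 0.989 to 5.74) against 3.69. After thinning, 1 and 0 such cells were left. Il12b and Il27 met in 18 wild-type cells at 2 h (14.5 expected) and in 67 at 8 h (64.2 expected). They met in 9 Rad21-/- cells at 2 h (4.65 expected) and in 26 at 8 h (19.2 expected), and after thinning in 4 (1.01 expected) and 11 (8.08 expected). The Rad21-/- numbers lie above the expected ones at both times but are small.

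Il12b and Il6 met no more often than their shares gave in wild-type cells, with 8 cells at 2 h (11.4 expected) and 47 at 8 h (46.3 expected), or after thinning 1 (3.71 expected) and 23 (27.2 expected). In Rad21-/- cells at 8 h they met in 22 cells (14.2 expected), and after thinning in 10 (6.70 expected). The thinned odds ratio, the odds of one gene in cells with the other over those in cells without it, was 0.693 in wild-type and 1.96 in Rad21-/- cells at 8 h. Another random draw gave 0.867 and 1.48. None of Il27, Ebi3, Il6 and Il10 had a thinned odds ratio of at least 2 with Il12b in Rad21-/- cells at 8 h, against 4.67% of all genes, and Il27 and Il6 had one of 2.24 with each other (11 cells against 6.87 expected), against 4.89% of all genes for Il27. With the other draw this odds ratio was 1.67 (8 cells against 5.86 expected), below 2. Il12b and Il10 met in 3 thinned Rad21-/- cells at 8 h against 6.31 expected, and in 17 wild-type cells against 17.6.

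Wild-type cells with Il12b at 8 h, 96 of 257, held Il27 in 69.8%, Ebi3 in 88.5%, Il6 in 49% and Il10 in 39.6% of cases, which are close to the shares in all wild-type cells of that sample. Their median depth was 5911 UMIs against 5450 in cells without Il12b. Of the 6789 genes with at least 5 expected thinned cells shared with Il12b, 4.08% had an odds ratio of at least 2 in wild-type cells at 8 h, and none of Il27, Ebi3, Il6 and Il10 was among them. The 5 genes with the highest odds ratio were Rps21 (9.76), Irf7 (7.80), C1qb (7.09), Cd14 (6.84) and Tnip3 (5.89). Each was found in 206 to 222 of the 228 thinned cells, so these odds ratios rest on the few cells that lacked the gene. Of the pairs of Ebi3, only the one with Il10 had a thinned odds ratio of at least 2 in wild-type cells at 8 h (2.13, 51 cells against 46.0 expected), against 10.9% of all genes for Ebi3.

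Counted per cell, the number of the 6 genes with a UMI was 0.68 ± 0.79 (SD over cells) in untreated wild-type cells, 1.69 ± 1.19 at 2 h and 2.75 ± 1.16 at 8 h, and 0.64 ± 0.71, 1.39 ± 0.97 and 2.17 ± 1.08 in Rad21-/- cells. At 8 h, 143 of 257 wild-type cells held 3 or more of the genes (55.6%, 49.3 to 61.8) and 70 of 224 Rad21-/- cells did (31.2%, 25.2 to 37.8). Random combination of the shares gave 59.7% and 34.5%. After thinning, 39.0% of wild-type cells (32.7 to 45.7) and 14.8% of Rad21-/- cells (10.2 to 20.4) held 3 or more, against 40.9% and 14.3% expected. Cells with all 6 genes numbered 3 in wild-type at 2 h, 3 at 8 h and 2 in Rad21-/- at 8 h, and none was left after thinning.

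**Figure D4:**
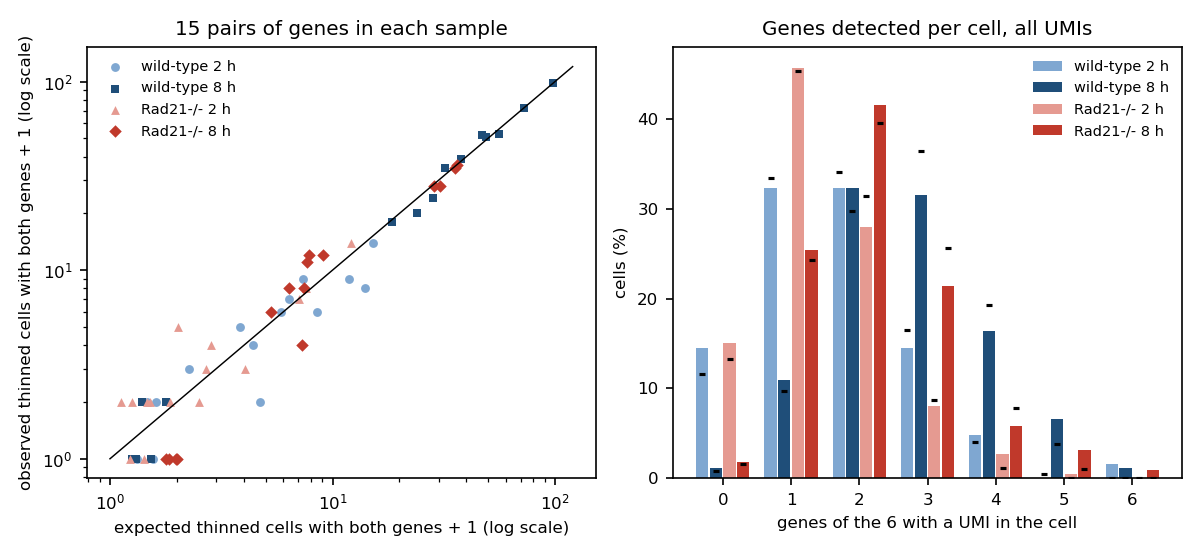
Left: thinned cells that held both genes of a pair (y axis, log scale, 1 added) against the number expected from the shares (x axis, log scale, 1 added) for the 15 pairs in the 4 LPS samples, with the line of equality. Right: percentage of cells (y axis) by number of the 6 genes with a UMI (x axis), as bars, with black marks for random combination. Pairs with many expected cells lie on the line, such as Il27 with Ebi3 at 97 against 96.9.

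Markers of other cell types were read in the thinned cells with and without Il12b. At 8 h, wild-type cells with Il12b held 3123 macrophage marker UMIs per 100 cells and cells without it 2938, and dendritic cell markers (Flt3, Zbtb46 and Itgax) stood at 8.70 and 10.7. At 2 h the dendritic cell markers stood at 11.8 and 13.7. The 1 mast cell marker with a row, Cpa3, was higher in wild-type cells with Il12b than without it at 8 h (8.70 and 2.52). T and NK cell markers were so in Rad21-/- cells at 2 h (25 and 7.04), where 12 thinned cells held Il12b. Neither direction held in every sample. Cpa3 stood at 0 and 4.58 in wild-type cells at 2 h, and T and NK cell markers at 1.45 and 8.18 in wild-type cells at 8 h. The part of these markers in the Il12b values was not tested. Itgax, which encodes the integrin CD11c, had a UMI in 0 to 2.59% of cells in the 6 samples. Flt3 had one in 1.61% to 3.50% and Zbtb46 in 12.8% to 17.7%. At least 1 of these 3 markers was found in 15.5% to 19.9% of cells.

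Of the receptors and signalling genes that act downstream of these cytokines, 15 of 16 listed had a row and 14 passed the filter. In wild-type cells 1 was at least 2-fold higher and 1 lower at 2 h, and 4 were higher and 2 lower at 8 h, with a median ratio of 0.939 and 1.29. Over all genes 5.68% were higher and 7.36% lower at 2 h and 7.75% and 19% at 8 h, with medians of 0.934 and 0.842, so that 1 of 14 in each direction at 2 h is near the background. Socs3, the feedback inhibitor of gp130 signalling, went from 1.04 thinned UMIs per 100 wild-type cells untreated to 97 at 2 h and 121 at 8 h. Its Rad21-/- levels were 0, 103 and 52.2, a Rad21-/- to wild-type ratio of 1.06 at 2 h and 0.430 at 8 h. Jak2, a kinase of the interleukin-12 receptor, was 7.68-fold higher at 8 h than untreated in wild-type cells, Socs1 3.93-fold and Stat3, which relays interleukin-6 and interleukin-10 signals, 2.83-fold. Il6ra and Il6st, which encode the interleukin-6 receptor and gp130, were lower in wild-type cells at 8 h, at 0.272 and 0.459 times the untreated level. At 2 h both were higher in Rad21-/- than in wild-type cells, at 2.92 and 2.14 times.

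Between the genotypes at 8 h none of the 14 genes was at least 2-fold higher and 4 were lower in Rad21-/- cells, against 12.1% and 5.97% of all genes. They were Il12rb2 (0.225), Socs1 (0.361), Socs3 (0.430) and Jak2 (0.442), at a median ratio of 0.793 against 1.15 over all genes. The receptor chain gene Il12rb1 was under the filter, with at most 1.79 thinned UMIs per 100 cells in any sample.

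Of 21 listed regulators of these cytokine genes, 20 had a row and 19 passed the filter. In wild-type cells 12 were at least 2-fold higher and 2 lower at 2 h, and 10 were higher and 1 lower at 8 h, with median ratios of 3.75 and 2.06. The shares over all genes were again 5.68% and 7.36% at 2 h and 7.75% and 19% at 8 h. Nfkbiz, which encodes IkappaBzeta, a nuclear cofactor needed for Il6 and Il12b induction, went from 4.69 thinned UMIs per 100 wild-type cells to 255 at 2 h and 39.5 at 8 h, and from 0.897 to 202 and 54.2 in Rad21-/- cells. Rel, the NF-kappaB subunit c-Rel that acts at Il12b, was 4.88-fold higher at 2 h in wild-type and 3.94-fold in Rad21-/- cells. Irf1 was 10.1-fold and 17.8-fold higher at 2 h. Of the RNA-binding regulators, Zc3h12a, whose product Regnase-1 degrades Il6 mRNA, stood at 17.7-fold (7.34 to 55.6) at 8 h in wild-type cells. Arid5a, whose product stabilises that mRNA, stood at 32-fold (5.41 to 1297). Its untreated level was 0.521 thinned UMIs per 100 cells, so this ratio carries little more than its lower bound. Zfp36 was also higher at 8 h (8.08-fold). Zfp36l1 was the 1 lower regulator at that time, at 0.225 times the untreated level (0.0543 to 0.705).

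Between the genotypes at 2 h, 1 of 19 regulators was at least 2-fold higher in Rad21-/- cells (Bcl3, 2.14) and 1 was lower (Cebpb, 0.376), which is near the 6.01% and 8.3% of all genes. At 8 h 5 were lower and 1 was higher, against 5.97% and 12.1% of all genes, at a median ratio of 0.758. Cebpb, the C/EBP family member known to act at Il6 and Il12b, was the one below 1/2 in all 3 samples, at 0.371 untreated, 0.376 at 2 h and 0.285 at 8 h. Zfp36, which encodes the mRNA decay factor tristetraprolin, stood at 0.253 at 8 h (0.191 to 0.333). Arid5a stood at 0.384 (0.188 to 0.737), Bcl3 at 0.413 (0.279 to 0.602) and Atf3 at 0.424 (0.339 to 0.528). The 1 higher gene, Zfp36l1, stood at 2.53 (0.705 to 11.2), from 4.43 thinned UMIs per 100 Rad21-/- cells and 1.75 per 100 wild-type cells, and its interval spans 1. In untreated cells 3 were lower and none was higher, against 6.79% and 3.52% of all genes. They were Nfkbiz at 0.191 (0.0201 to 0.924), Atf3 at 0.291 (0.175 to 0.468) and Cebpb at 0.371 (0.258 to 0.527).

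The genes whose level was most like that of each cytokine gene over the 6 samples were sought among 11913 genes with at least 100 UMIs, by Pearson's r of log2(thinned UMIs per 100 cells + 1), given as a description. For Il12b they were Mbnl2 (r = 0.989), Bcl2a1d (0.987) and Bcl2a1b (0.987), the last 2 being near-identical gene copies. Whether these 2 share reads was not tested. For Il27 they were Tnfrsf1b (0.996), Rps6ka4 (0.989) and March5 (0.988), and for Ebi3 Gm16712 (0.994), Denr (0.992) and Gm6733 (0.99). For Il6 they were Dtx3l (0.994), Gm15832 (0.994) and Gch1 (0.99), and for Il10 Clic4 (0.996), Suco (0.995) and Sp140 (0.992). With 6 points that share libraries and time points, r near 1 is common among so many genes.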

How the data were processed

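Single bone marrow-derived macrophages were sorted and sequenced by MARS-seq. The authors demultiplexed reads by pool and cell barcode, mapped them with GEMTools 1.7.0 to GRCm38.p4 with Gencode M8, dropped wells above 15% spike-in or below 60% mapped reads, collapsed UMIs at an edit distance of up to 2, and deposited the UMI counts of each gene in each cell as raw, not normalized values. The matrix held 18429 genes and 1362 cells. Cell names were unique and gave group and pool, and no doublet caller was run because cells were sorted singly.

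Analyses used Python 3.11.15, numpy 2.4.6, pandas 2.3.3, scipy 1.17.1 and matplotlib 3.10.9. Cells were thinned without replacement to 3800 UMIs, the largest multiple of 100 that kept 80% of the cells of each sample. Totals per sample lay between 1417409 and 2195921 UMIs. Shares have Clopper-Pearson, UMI sums Poisson and ratios conditional binomial intervals. A gene at 0 stood at 3 UMIs, and no ratio was formed when both samples had 3 or fewer. Calls are 2-fold ratios over 10580 genes with at least 50 thinned UMIs. Odds ratios had 0.5 added to each cell.

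Genes named were the members, listed pathway genes past 2-fold in wild-type cells or between genotypes (a listed gene is not reported here), the 3 genes most like each member over samples, and the 5 with the highest odds ratio with Il12b. Members and lists were chosen with earlier results of these data known. Steps were tested on simulated data for wild-type 2 h against untreated, where 100 genes raised 2-fold returned a median ratio of 1.99. Only genes with at least 50 expected thinned UMIs in untreated wild-type cells were evaluated, and transcripts were not clustered in few cells. The check therefore does not cover genes such as Il12b, Il27 and Il6, which had 5, 6 and 1 untreated wild-type UMIs.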

Additional observations from a re-analysis of the deposited data

Results flagged for a closer look

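The Rad21-/- to wild-type ratio of Ebi3 lay on opposite sides of 1, below it in untreated cells (0.969) and above it after 2 h (1.09) and 8 h (1.37) of LPS. With 1 sample per condition, whether these ratios differ was not tested. The untreated ratio was 1.06 with another random draw, 1.01 with equal weight per library pool and 1.11 without 1 pool, and the 2 h ratio was 0.941 without another, so neither direction was stable. The untreated and 2 h intervals span 1, and the 8 h interval (1.21 to 1.56) lies above it.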

How the results depend on the processing

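No paired analysis was possible because each condition has 1 sample. The number of genes past 2-fold in wild-type cells at 2 h was 3, and 5 by mean CPM, by summed UMIs over summed totals and with equal weight per library pool. Ebi3 stayed under 2 in these settings (1.49, 1.54 and 1.45 in that order), so the 5 genes include Il23a. At a 3-fold limit, the Rad21-/- count at 2 h went from 4 to 2, the genotype count at 2 h from 4 to 2 and the untreated genotype count from 1 to 0. The untreated genotype count was 2 by mean CPM, 3 with equal weight per pool and 1 to 2 when library pools were left out in turn, with 2 without pool 2323AA, 2324AA, 2327AA or 2330AA. Both counts of 4 include Il23a, which was under the limit of 50 UMIs. Ratios past 2-fold that crossed 1 were those of Il23a, between 0.921 and 4.62 when pools were left out in turn (Rad21-/- 2 h against untreated) and 0.5 at 5500 UMIs (Rad21-/- against wild-type, 2 h). Ratios near 1 also crossed it, with Ebi3 between genotypes at 0.789 to 1.11 untreated and 0.941 to 1.37 at 2 h, Il12b at 8 h at 0.74 to 1.12, and Il23a in Rad21-/- cells at 8 h against untreated at 0.959 to 2.19. Leaving out the 17 wells over 25000 UMIs moved no count by more than 1.5 times. Leaving out pool 2326AA took the wild-type Il6 ratios to 5.76 at 2 h and 43.6 at 8 h. The 1 untreated thinned Il6 UMI lay in that pool. Without it the untreated sample stood at the floor of 3 UMIs, so these 2 ratios are set by the floor. Depth limits Il23a, untreated Il6 and pairs of genes with few expected cells, whose numbers change with the random draw.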
